A study of Mus musculus with 6 samples.

Results

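The RNA of 10 histone genes was followed in mouse oocytes without and with Khdc3: the oocyte linker histone gene H1foo, the somatic linker histone gene H1f0, and 8 genes for core histone variants (H3f3a, H3f3b, H2afz, H2afv, H2afx, H2afy, H2afj and Cenpa). They were taken by symbol from the deposited expression table, which lists 53656 gene symbols, and all 10 were found and tested. The study sequenced RNA of oocytes dissected from ovaries in 6 libraries, 3 from Khdc3-null (knockout, KO) oocytes and 3 from wild-type (WT) oocytes. The labels give no strain, age, allele or oocyte stage, nor whether each library of a genotype had its own animal. The p-values therefore describe the spread between these 6 libraries, which may be technical. Levels are RPKM, read numbers divided by gene length in kilobases and by the size of the library, as the authors deposited them. Gene positions are those of GENCODE M21 on the mouse build GRCm38. The comparison asks how the oocyte transcriptome differs when Khdc3, a maternal gene of the subcortical complex of oocytes and early embryos, is lost.

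Histones package DNA into nucleosomes, and linker histones of the H1 family bind the DNA where it enters and leaves the nucleosome. Most histone genes are expressed during DNA replication, whereas many variant genes are expressed throughout the cell cycle. Variants give chromatin local properties. The growing oocyte does not replicate its DNA, and its chromatin is built with a linker histone of its own, H1foo, and with variants such as H3.3, which dedicated chaperones place outside replication. The stock of these proteins and RNAs is inherited by the egg and is used to remodel the sperm chromatin after fertilisation.

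The libraries matched their labels and their tissue. Khdc3 stood at 0.224, 0.217 and 0.113 RPKM in KO replicates 1, 2 and 3, against 423, 425 and 502 RPKM in WT replicates 1, 2 and 3. All 12 oocyte markers examined were present, with a summed level of 11882 to 12206 RPKM in KO libraries and 12071 to 13093 RPKM in WT libraries. Markers of other ovarian cells were also detected. The 12 granulosa markers summed to 329 to 424 RPKM in KO libraries and 165 to 287 RPKM in WT libraries, the 10 stromal and smooth muscle markers to 30.8 to 40.8 RPKM in KO and 23.4 to 31.3 RPKM in WT, and the 6 theca and luteal markers to 102 to 125 RPKM in KO and 23.8 to 132 RPKM in WT. Pdgfra, Tagln, Des, Insl3, Ptprc and Adgre1 were under 1 RPKM in all 6 libraries. The granulosa sum was higher in every KO library than in any WT library. Of the granulosa markers 0 of 11 tested were called between genotypes, with a median log2 change of 0.51. Of the stromal markers 1 of 7 was called higher in KO, Acta2, with a median log2 change of 0.73. The change was positive for 10 of the 11 and for 6 of the 7. At an unadjusted p under 0.05 (limma) there were 5 of the 11 and 7 of the 7, where 19.0% of all tested genes lie under that value. The leukocyte markers, of which Ptprc and Adgre1 define the class, summed to 6.63 to 13.4 RPKM in KO and 2.71 to 5.12 RPKM in WT. Several histone variants are made in every cell type, and the part of these other cells in the member levels was not tested. In such bulk RNA, fewer cells of a type and less RNA per cell cannot be told apart. On the second principal component (18.1% of the variance) KO replicate 1 lay away from KO replicates 2 and 3, and 28.7% of all tested genes had their highest value there.

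None of the 10 histone genes passed the test between KO and WT oocytes (limma on log2(RPKM + 1), adjusted p under 0.05 over 12272 tested genes), where 2.74% of all tested genes did. On recovered reads, limma voom also called 0 of the 10. At an unadjusted p under 0.05 there were 2 of the 10, H2afj and H2afx, where 19.0% of all tested genes lie under that value. The KO values all lay above the WT values for 3 of the 10, H2afj, H2afx and H3f3b, and 13.5% of all tested genes were separated in that direction. Leaving out a KO library cannot undo such a separation, and without KO replicate 1 no further member was separated. The median log2 change was 0.12 over the 10 genes and 0.014 over all tested genes. The change was positive for 9 of the 10, of which that of Cenpa turned negative without KO replicate 1 (-0.039) and with library weights (-0.021). H2afv had a change near 0, which turned positive without KO replicate 2 (0.067) or WT replicate 1 (0.022). Of all tested genes, 6520 of 12272 had a positive change. KO replicate 1 held the highest value for 6 of the 10.

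**Figure D1:**
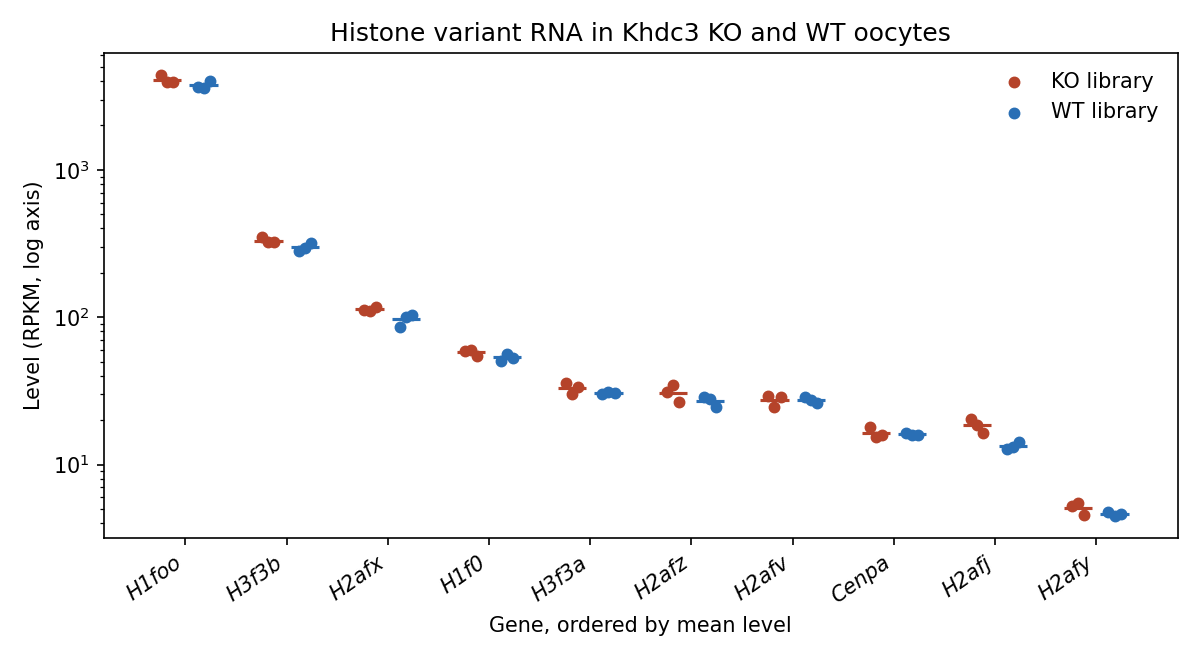
RPKM on a log axis for each histone gene in each library, with KO libraries in red to the left of WT libraries in blue and a line at each group mean. H1foo lies between 3600.3 and 4397 RPKM in all 6 libraries, far above the other 9 genes, and the KO points lie wholly above the WT points only for H3f3b, H2afx and H2afj.

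H1foo (chr6:115944938-115950236, plus strand), which encodes the linker histone that takes the place of somatic H1 in growing oocytes, was among the most abundant RNAs of the cell. It stood at 4397, 3938 and 3962 RPKM in KO replicates 1, 2 and 3, against 3657, 3600.3 and 3996 RPKM in WT replicates 1, 2 and 3. KO replicate 1 was the highest library, and WT replicate 3 lay above KO replicates 2 and 3, so the groups overlapped. By group mean it ranked 1 of all gene symbols in KO and 2 in WT, where a clone-named transcript, RP23-176J13.11, was higher. It made up 1.27% of the summed RPKM in KO libraries and 1.18% in WT libraries, on 152145 to 207271 reads a library. The means were 4099 ± 258 RPKM in KO and 3751 ± 214 RPKM in WT (SD, n = 3 each), and the log2 change of 0.13 ± 0.07 (SE) did not pass (limma, adjusted p = 0.38). The 95% interval of the ratio of KO to WT was 0.971 to 1.23. It takes in no change, a slightly lower level in KO and a level up to 1.23-fold higher. Without KO replicate 1 the log2 change was 0.076.

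The 250 bases upstream of the RefSeq start of H1foo (listed there as H1f8) are shown because this gene had the highest level, and those of H2afj (listed as H2aj) because its difference between genotypes was the largest of the 10. Both come from RefSeq on GRCm38.p6, plus strand, 5′ to 3′, at chr6:115944681-115944930 for H1foo and at chr6:136807998-136808247 for H2afj. Capitals mark CCAAT, or ATTGG where it lies on the other strand.
H1foo promoter: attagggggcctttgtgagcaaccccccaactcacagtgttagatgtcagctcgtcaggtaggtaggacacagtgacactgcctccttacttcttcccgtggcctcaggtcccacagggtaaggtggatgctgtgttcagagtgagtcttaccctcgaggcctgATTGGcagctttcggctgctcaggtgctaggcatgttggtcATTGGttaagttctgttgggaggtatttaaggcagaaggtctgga
H2afj promoter: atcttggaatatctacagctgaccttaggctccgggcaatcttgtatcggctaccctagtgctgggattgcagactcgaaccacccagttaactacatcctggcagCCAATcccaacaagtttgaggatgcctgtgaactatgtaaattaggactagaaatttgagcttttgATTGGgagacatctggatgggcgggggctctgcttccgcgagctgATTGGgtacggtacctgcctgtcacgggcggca
CCAAT, the letters of the box bound by the factor NF-Y, was searched on both strands. It occurred 2 times upstream of H1foo and 3 times upstream of H2afj. Among the 9 members with a promoter entry, 7 held it at least once, with 4 matches each in H3f3b and H2afv, and H1f0 and H2afy held none. Of 32817 promoter windows of the same length in the mouse, 33.8% held it. TATAAA, the TATA box, occurred in 1 of the 9, H3f3b, and in 12.4% of all windows. CANNTG, the E-box of basic helix-loop-helix factors, occurred in 6 of the 9 and in 66.2% of all windows. TAATTG, a site of the oocyte homeobox factor NOBOX, occurred in 0 of the 9 and in 7.17% of all windows. In both windows shown, no CCAAT match shared bases with CANNTG, and in the window of H2afv 1 did. A match is a run of letters and not a bound site.

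H1f0 (chr15:79028450-79030504, plus strand) encodes H1.0, the replacement linker histone of differentiated and non-dividing cells. It stood at 59.2, 59.7 and 54.9 RPKM in KO replicates 1, 2 and 3, against 50.5, 56.4 and 53.04 RPKM in WT replicates 1, 2 and 3. KO replicates 1 and 2 lay above every WT library and KO replicate 3 lay within the WT range. The log2 change was 0.12 ± 0.07 (SE; limma, adjusted p = 0.39). H1foo RNA was 63.8 to 75.3 times as abundant as H1f0 RNA per kilobase, and its share of the pair was 98.6 ± 0.0864% in KO and 98.6 ± 0.122% in WT (SD, n = 3 each). Among other linker histone genes, H1fx averaged 14.4 ± 2.95 RPKM in KO and 13.1 ± 0.123 RPKM in WT, and Hist1h1a averaged 13.3 ± 0.187 RPKM in KO and 12.4 ± 1.08 RPKM in WT (SD, n = 3 each). Hist1h1b, Hist1h1c and Hist1h1e were at 1.41 to 2.48 RPKM by group mean, Hist1h1d was under 1 RPKM, and the testis genes Hist1h1t, H1fnt and Hils1 were at 0 or close to it. The Hist1h1 genes are replication-dependent and their RNAs mostly lack poly(A) tails. No source used here states whether poly(A) RNA was selected, so their levels may not compare with those of the variants.

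Of 9787 protein-coding genes with a standard name, the 3 whose log2(RPKM + 1) ran closest to that of H1foo over the 6 libraries were Psmb2, a proteasome subunit gene (Pearson r = 0.997), Thap1, which encodes a zinc finger protein (r = 0.995), and Hsbp1, a heat shock factor binding protein gene (r = 0.993). Each had its highest value in KO replicate 1, as H1foo did. None of the 3 passed the test between genotypes (limma, adjusted p of 0.37 to 0.49). With 6 libraries that share their depth and preparation, these values describe the libraries only.

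H3f3a (chr1:180800832-180813943, minus strand) and H3f3b (chr11:116021912-116027962, minus strand) both encode histone H3.3, the H3 variant that the chaperones HIRA and DAXX with ATRX deposit outside replication. The coding sequences, 408 bases each without the stop codon, were identical at 313 bases (76.7%), and 81 of the 95 differences fell on the third base of a codon. Their longest shared run was 23 bases. The first 120 coding bases are shown because they tell the RNAs of this pair apart. They come from GENCODE M21 on GRCm38, 5′ to 3′, on the minus strand of chr1:180811807-180811926 for H3f3a and of chr11:116023890-116024009 for H3f3b, with the differing bases in capitals.
H3f3a coding start: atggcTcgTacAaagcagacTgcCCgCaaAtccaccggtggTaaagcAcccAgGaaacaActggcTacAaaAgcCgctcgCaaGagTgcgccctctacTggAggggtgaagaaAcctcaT
H3f3b coding start: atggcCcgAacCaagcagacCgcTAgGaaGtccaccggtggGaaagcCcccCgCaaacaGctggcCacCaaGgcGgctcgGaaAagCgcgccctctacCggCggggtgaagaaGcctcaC
H3f3b had the higher level of the pair in all 6 libraries. It stood at 348, 322 and 322 RPKM in KO replicates 1, 2 and 3, against 283, 294 and 321 RPKM in WT replicates 1, 2 and 3. Every KO library lay above every WT library, although KO replicates 2 and 3 exceeded WT replicate 3 by little. The log2 change was 0.15 ± 0.07 (SE; limma, adjusted p = 0.30), with a 95% interval of 0.992 to 1.24 for the ratio of KO to WT. H3f3a stood at 35.9, 30.2 and 33.4 RPKM in KO replicates 1, 2 and 3, against 30.03, 30.9 and 30.6 RPKM in WT replicates 1, 2 and 3. KO replicate 2 lay within the narrow WT range and the other KO libraries above it. Its log2 change was 0.11 ± 0.08 (SE; adjusted p = 0.46), and it was 0.056 without KO replicate 1, 0.067 with library weights and 0.18 without KO replicate 2.

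H3f3b gave 90.9 ± 0.464% of the summed RPKM of the pair in KO and 90.7 ± 0.496% in WT (SD, n = 3 each), and the ratio of H3f3b to H3f3a ranged over 9.41 to 10.7 in the 6 libraries. The difference between genotypes in this share, 0.177 percentage points, was smaller than the spread between libraries, and its sign turned without KO replicate 2 (-0.091). The level of H3f3a is less certain than that of H3f3b. Of the 100-base windows in its transcripts, 20.8% also occur in transcripts of 15 other genes, among them the copies H3f3a-ps1, H3f3a-ps2 and H3f3c, against 1.92% of the windows of H3f3b. H3f3a-ps1 averaged 3.15 ± 0.684 RPKM in KO and 2.56 ± 0.390 RPKM in WT, H3f3c 2.66 ± 1.03 RPKM in KO and 2.20 ± 0.642 RPKM in WT, and H3f3a-ps2 1.25 ± 0.1799 RPKM in KO and 1.098 ± 0.409 RPKM in WT (SD, n = 3 each), and none was called. No source used here states how reads matching several places were counted. The antisense transcript H3f3aos was at most 0.0569 RPKM.

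**Figure D2:**
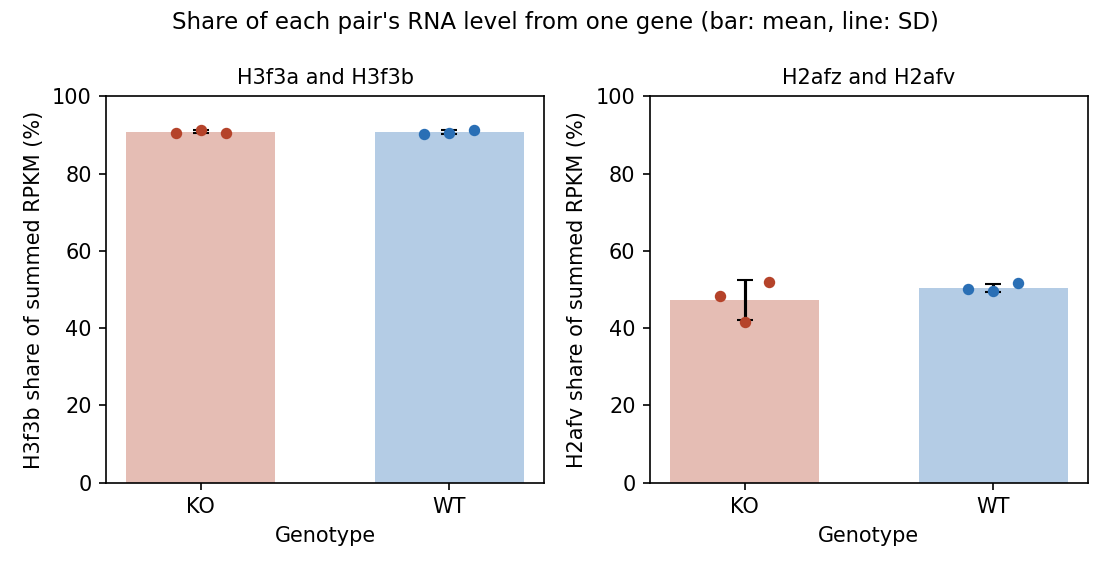
Share of the summed RPKM of each gene pair that came from H3f3b (left panel) and from H2afv (right panel), in percent, with KO left of WT, bars at the mean, lines at 1 SD and a point per library. H3f3b holds 90.4 to 91.4% of its pair in all 6 libraries, and H2afv 41.6% (KO replicate 2) to 52.04% (KO replicate 3) of its pair as deposited.

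H2afz (chr3:137864487-137866922, plus strand) and H2afv (chr11:6427229-6444443, minus strand) encode H2A.Z.1 and H2A.Z.2, nearly identical forms of the variant that the SRCAP and EP400 remodellers exchange into nucleosomes near promoters. Their coding sequences, 384 bases each, were identical at 304 bases (79.2%), with a longest shared run of 14 bases. Their first 120 coding bases show the same pattern of scattered differences, in capitals, again from GENCODE M21 on GRCm38 and 5′ to 3′. The stretches span introns, on the plus strand of chr3:137864694-137865558 for H2afz and on the minus strand of chr11:6433799-6444339 for H2afv.
H2afz coding start: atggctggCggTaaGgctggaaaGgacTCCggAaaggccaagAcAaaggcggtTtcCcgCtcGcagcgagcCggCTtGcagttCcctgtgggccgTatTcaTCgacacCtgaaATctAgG
H2afv coding start: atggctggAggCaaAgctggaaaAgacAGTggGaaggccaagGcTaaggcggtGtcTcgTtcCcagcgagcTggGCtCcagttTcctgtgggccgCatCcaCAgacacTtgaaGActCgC
H2afz stood at 31.2, 34.5 and 26.4 RPKM in KO replicates 1, 2 and 3, against 28.6, 28.0 and 24.7 RPKM in WT replicates 1, 2 and 3. KO replicates 1 and 2 lay above the WT libraries and KO replicate 3 lay among them. The log2 change was 0.17 ± 0.11 (SE; limma, adjusted p = 0.43), and it was 0.081 without KO replicate 2, 0.103 without WT replicate 3 and 0.27 without KO replicate 3. H2afv stood at 29.0, 24.6 and 28.6 RPKM in KO replicates 1, 2 and 3, against 28.6, 27.5 and 26.3 RPKM in WT replicates 1, 2 and 3. KO replicate 2 was the lowest and KO replicate 1 the highest of the 6 libraries. Its log2 change was -0.0068 ± 0.08 (SE; adjusted p = 0.98), with a 95% interval of 0.872 to 1.14 for the ratio of KO to WT.

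H2afv gave 48.2, 41.6 and 52.04% of the pair's summed RPKM in KO replicates 1, 2 and 3 and 50.03, 49.5 and 51.6% in WT replicates 1, 2 and 3. KO replicate 2 held both the highest H2afz and the lowest H2afv value. Of the 100-base windows in H2afz transcripts, 25.7% occur in transcripts of 4 other genes, and 0% of those of H2afv do, so the balance of the pair is uncertain on the H2afz side. The balance also depended on the gene length used. With the longest coding transcript of each gene (1069 bases for H2afz, against 1776 bases of all exons), a choice made after seeing the data, the H2afv share was 35.1 ± 4.795% in KO and 37.9 ± 1.0401% in WT (SD, n = 3 each). All reads of each gene were kept there, also those from exons outside the transcript. As deposited, the difference of KO minus WT was -3.09 percentage points, and -0.249 points without KO replicate 2.

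H2afj showed the largest difference of the 10 genes. It lies at chr6:136808244-136810074, plus strand, and encodes H2A.J, a replication-independent H2A variant that accumulates in senescent human cells. It stood at 20.5, 18.7 and 16.4 RPKM in KO replicates 1, 2 and 3, against 12.7, 13.1 and 14.2 RPKM in WT replicates 1, 2 and 3. Every KO library lay above every WT library. The means were 18.5 ± 2.01 RPKM in KO and 13.3 ± 0.787 RPKM in WT (SD, n = 3 each), and the log2 change of 0.44 ± 0.09 (SE) fell just short of the threshold (limma, adjusted p = 0.053). The 95% interval of the ratio of KO to WT, taken on RPKM + 1, was 1.17 to 1.58. The gene was called with median-of-ratios rescaling (adjusted p = 0.047), with a filter of RPKM 5 (0.046) and with library weights (0.028). In these settings 2.83, 3.05 and 5.39% of all tested genes were called, against 2.74% in the main test. H2afj was not called under the other 12 alternatives. There its log2 change ran from 0.37 (without KO replicate 1, adjusted p = 0.078) to 0.52, and the adjusted p reached 0.165 without WT replicate 2. The granulosa sum was also higher in KO libraries. KO replicate 3 had the highest granulosa sum and the lowest H2afj level of the KO libraries. WT replicate 3 had the lowest sum and the highest H2afj level of the WT libraries. Most of the sum came from Inha, at 227 to 310 RPKM in KO libraries and 104 to 203 RPKM in WT libraries. The stromal and smooth muscle sum was 40.5, 40.8 and 30.8 RPKM in KO replicates 1, 2 and 3. In WT replicates 1, 2 and 3 it was 31.3, 26.3 and 23.4 RPKM. This sum was lowest in KO replicate 3, as H2afj was among KO libraries. It was also low in WT replicate 3, where H2afj was the highest of the WT libraries. The leukocyte sum was higher in every KO library than in any WT library. The part of RNA from granulosa or other cells in the H2afj difference was not tested.

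H2afx (chr9:44334694-44336077, plus strand) encodes H2AX, which is phosphorylated around DNA double-strand breaks. It stood at 112, 110 and 118 RPKM in KO replicates 1, 2 and 3, against 85.5, 100.2 and 104 RPKM in WT replicates 1, 2 and 3. Every KO library lay above every WT library, and WT replicate 1 was the lowest. The log2 change was 0.23 ± 0.08 (SE; limma, adjusted p = 0.19), and the 95% interval of the ratio of KO to WT was 1.03 to 1.34. Without WT replicate 1 the log2 change was 0.15. H2afx lies 28.8 Mb from Khdc3. Of its 100-base windows, 4.67% occur in transcripts of 19 other genes, most of them replication-dependent H2A genes. Within 1 Mb, 2 of 18 tested genes were called for H2afx, 2 of 10 for H2afj and 2 of 11 for H3f3a. The count was 1 of 16 for H1foo, 1 of 9 for H2afz and 1 of 44 for H3f3b. For H2afy, H2afv, H1f0 and Cenpa it was 0, of 22, 23, 29 and 33 tested genes. Of all tested genes, 2.74% were called. The part of position in the differences of the members was not tested.

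H2afy (chr13:56073619-56136361, minus strand) encodes macroH2A1, the variant with a large C-terminal domain that is enriched on the inactive X chromosome of female somatic cells. It stood at 5.22, 5.44 and 4.51 RPKM in KO replicates 1, 2 and 3, against 4.78, 4.46 and 4.60 RPKM in WT replicates 1, 2 and 3. KO replicates 1 and 2 lay above the WT libraries and KO replicate 3 lay among them. The log2 change was 0.11 ± 0.09 (SE; limma, adjusted p = 0.57), and it was 0.061 without KO replicate 2 and 0.17 without KO replicate 3. Its paralogue H2afy2, for macroH2A2, averaged 3.54 ± 0.449 RPKM in KO and 2.54 ± 0.290 RPKM in WT (SD, n = 3 each; adjusted p = 0.15). The H2A.B genes H2afb1 and H2afb2 were listed at 0 in all libraries, and H2afb3 at 0.331 RPKM (5 reads) in KO replicate 3 and at 0 in the rest.

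Cenpa (chr5:30666777-30674830, plus strand) encodes the H3 variant that marks centromeres, and the difference in Cenpa RNA between genotypes was smaller than the spread between libraries. It stood at 18.1, 15.3 and 15.9 RPKM in KO replicates 1, 2 and 3, against 16.5, 15.9 and 15.8 RPKM in WT replicates 1, 2 and 3. KO replicate 1 was the highest and KO replicate 2 the lowest of the 6 libraries. The log2 change was 0.03 ± 0.08 (SE; limma, adjusted p = 0.88), with a 95% interval of 0.896 to 1.16 for the ratio of KO to WT.

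**Figure D3:**
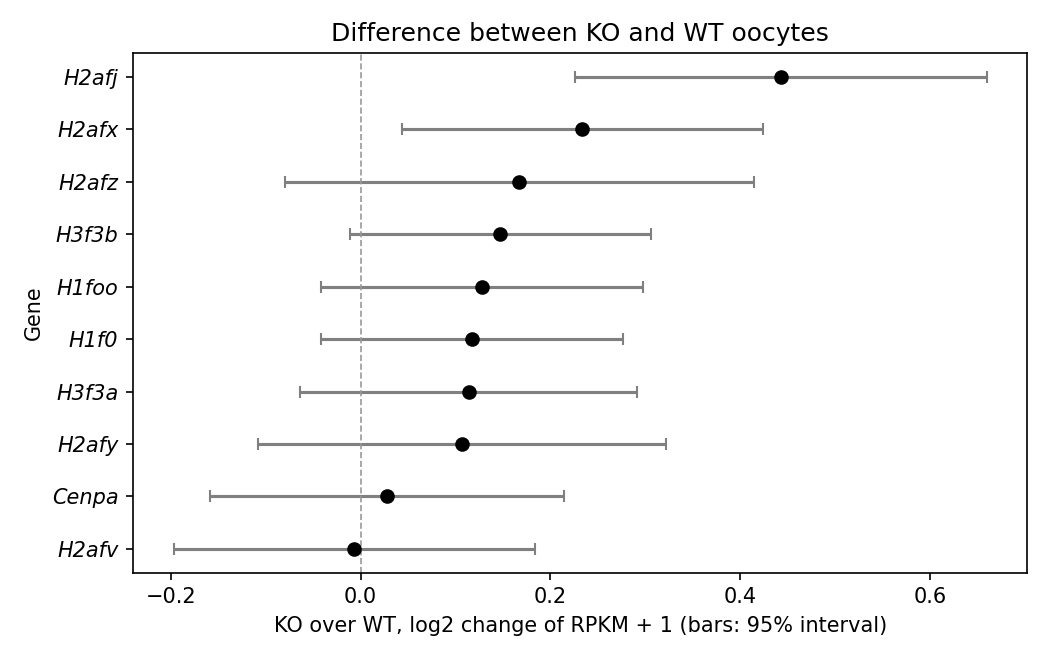
Log2 change of RPKM + 1, KO over WT, for each histone gene, with bars for the 95% interval from limma and a dashed line at 0. The intervals of H2afj (0.23 to 0.66) and H2afx (0.04 to 0.42) lie above 0 before adjustment over all tested genes, and the other 8 cross it.

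Hjurp (chr1:88262471-88277633, minus strand), the chaperone that loads CENP-A into centromeric chromatin, was the 1 gene called among the chaperones and remodellers that handle histone variants. It fell to 13.4, 15.8 and 15.0 RPKM in KO replicates 1, 2 and 3, against 20.4, 22.3 and 21.2 RPKM in WT replicates 1, 2 and 3. The groups did not overlap, with WT replicate 1 the lowest WT library and KO replicate 2 the highest KO library. The means were 14.7 ± 1.23 RPKM in KO and 21.3 ± 0.951 RPKM in WT (SD, n = 3 each). On the log2 scale Hjurp fell by 0.51 ± 0.08 (SE), with an adjusted p of 0.020 by limma. The change was negative under every alternative tried, while the call was lost without KO replicate 3 (adjusted p = 0.063), WT replicate 2 (0.082) or WT replicate 3 (0.071) and with no filter on low values (0.080). None of the 8 tested genes within 1 Mb of Hjurp, on chromosome 1, was called.

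Oip5 and Mis18a, genes of the Mis18 complex, which prepares centromeres for new CENP-A, had positive changes that did not pass. Oip5, its Mis18-beta subunit, stood at 7.71, 6.52 and 7.24 RPKM in KO replicates 1, 2 and 3, against 4.09, 5.18 and 5.41 RPKM in WT replicates 1, 2 and 3. Its log2 change was 0.47 ± 0.11 (SE; limma, adjusted p = 0.076). Oip5 lies on chromosome 2 in a stretch where 10 of the 34 tested genes within 1 Mb were called, and it shares 172 bases at its start with Nusap1, a called gene on the other strand at 95.97 ± 5.06 RPKM in KO and 146 ± 18.3 RPKM in WT. The library kit marks strand, but no source used here says that the counting used strand, so the 2 genes may share reads. The part of the position and of the overlap in its difference was not tested. Mis18a averaged 55.99 ± 6.43 RPKM in KO and 48.6 ± 2.33 RPKM in WT (SD, n = 3 each; limma, adjusted p = 0.29).

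Of the 51 genes on the list of histone chaperones and remodellers, 48 were tested, 0 were called higher and 1, Hjurp, was called lower, where 1.14% of all tested genes were called lower (limma). The median log2 change of the list was 0.042, and 0.014 over all tested genes. The groups did not overlap for 15 of the 48, where 25.8% of all tested genes were separated in either direction. Others among the genes of the list with the smallest p were Set, an inhibitor of histone acetylation, and Nap1l4, a chaperone of H2A and H2B. Set averaged 6.83 ± 1.00 RPKM in KO and 5.23 ± 0.751 RPKM in WT (adjusted p = 0.22), and Nap1l4 146 ± 5.07 RPKM in KO and 162 ± 5.62 RPKM in WT (SD, n = 3 each; adjusted p = 0.23). Npm2, the oocyte nucleoplasmin, was the most abundant gene of the list, with 1047 ± 56.5 RPKM in KO and 1065 ± 86.9 RPKM in WT (adjusted p = 0.90). Among the H3.3 chaperones, Daxx averaged 16.2 ± 0.898 RPKM in KO and 16.1 ± 3.03 RPKM in WT and Atrx 21.9 ± 1.30 RPKM in KO and 19.9 ± 2.33 RPKM in WT. Hira was listed at 0.526 RPKM by mean in both genotypes, and it was not tested, nor were Srcap and Cenpb, because they missed the filter on low values.

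**Figure D4:**
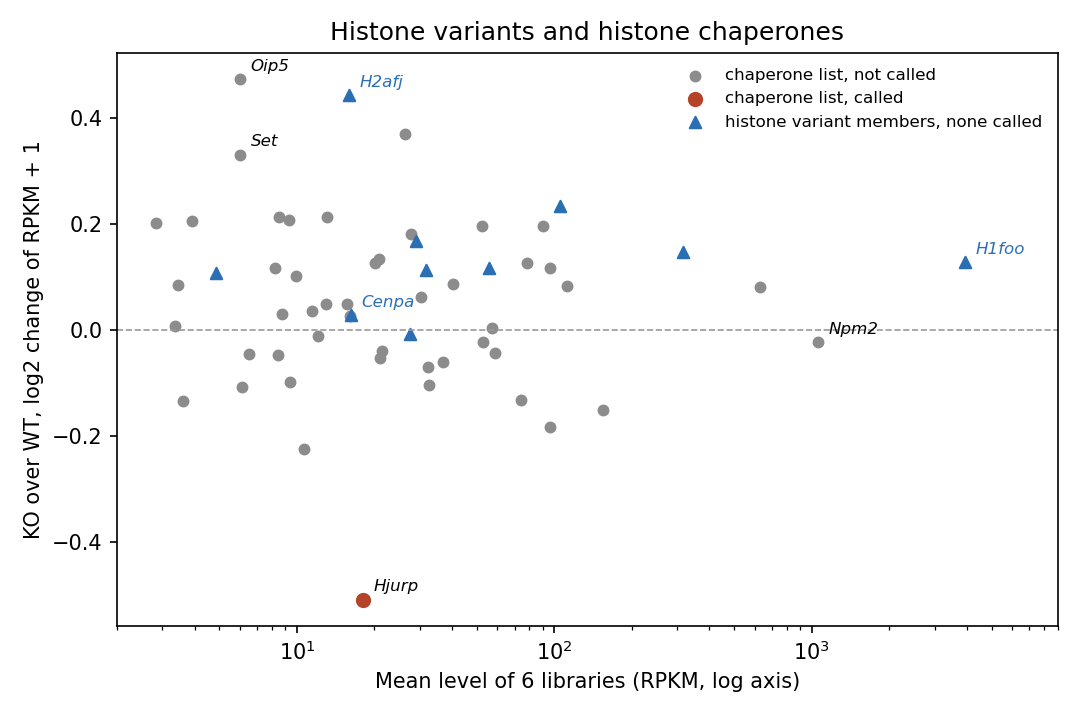
Log2 change of RPKM + 1, KO over WT, against the mean level of the 6 libraries (RPKM, log axis), for the 48 tested chaperone and remodeller genes (circles, red where called) and the 10 histone genes (blue triangles). Hjurp lies alone at -0.51, while Cenpa lies at 0.03 and the remaining genes lie between -0.22 and 0.47.

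Other variant and linker genes that had a mean of at least 1 RPKM in either group were H1fx, Hist1h1a, Hist1h1b, Hist1h1c, Hist1h1e, H2afy2, H3f3c and Hist3h2a, 8 in all. None of the 8 was called (limma). Their log2 changes, all positive, ran from 0.08 for Hist1h1c to 0.41 for Hist1h1e, with a median of 0.20, against 0.014 over all tested genes. At an unadjusted p under 0.05 there were 3 of the 8, where 19.0% of all tested genes lie under that value. The KO values all lay above the WT values for 3 of the 8, where 13.5% of all tested genes were separated in that direction.

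Ordered by mean RPKM over the 6 libraries, H1foo was followed by H3f3b, H2afx, H1f0, H3f3a, H2afz, H2afv, Cenpa, H2afj and H2afy. Ranges of neighbours in this order overlapped for 3 pairs, H3f3a with H2afz, H2afz with H2afv, and Cenpa with H2afj. The other neighbours were apart in every library, by a ratio of means of 1.69 for H2afv over Cenpa to 12.5 for H1foo over H3f3b. The order depended on the length by which reads were divided. The deposited RPKM divide by the length of all annotated exons of a gene, which for Cenpa comes to 5860 bases, while its longest coding transcript has 1466. All reads of a gene, also those from exons outside this transcript, were then divided by its length, which gives an upper limit. Per kilobase of that transcript, a choice made after seeing the data, Cenpa stood at 65.7 ± 5.85 in KO and 64.2 ± 1.36 in WT (RPKM on that length; SD, n = 3 each), against 16.4 ± 1.46 RPKM in KO and 16.1 ± 0.341 RPKM in WT as deposited, and it moved from place 8 to place 4. H2afy, with 6809 bases of exons and a coding transcript of 2046 bases, stood at 16.8 ± 1.61 in KO and 15.4 ± 0.523 in WT on that scale, and took place 9 by the mean of all 6 libraries. Its range of 14.9 to 18.1 then overlapped that of H2afj (12.7 to 20.5), which had the higher mean of these 2 genes in KO and the lower mean in WT. The first 3 places were the same on both scales.

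**Figure D5:**
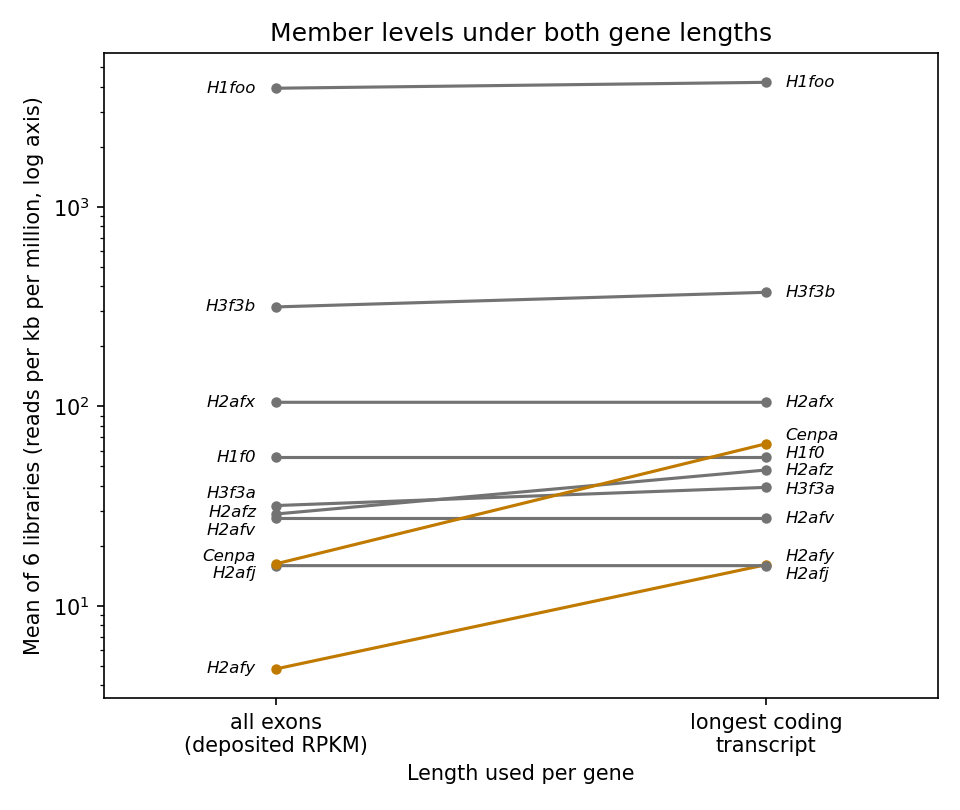
Mean level of each histone gene over the 6 libraries on a log axis, in RPKM, with the length of all exons as in the deposited RPKM (left) and with the longest coding transcript (right). Lines in orange mark Cenpa and H2afy, whose level is more than 3 times as high with the transcript length.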

How the data were processed

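RNA was measured in 6 libraries, 3 KO and 3 WT, grouped by their titles. The submitters' processing notes name STAR (version 2.6.0c), featureCounts (version 1.6.2) and FastQC (version 0.11.7), and the build GRCm38.p6. The strand setting and the handling of multiply matching reads are not stated there. The authors deposited 1 table of RPKM values. From these, reads were recovered with GENCODE M21 exon lengths: 92.4% of 19633 matched genes with reads were whole in all 6 libraries at a tolerance of 0.01, all 10 members among them. Library totals were 34640169 to 43343444 reads, and a member had 804 to 207271 reads in a library. Counting error was 0.223 to 3.28% of a member's level, against a spread between libraries of 1.48 to 13.3%. It was as large as the spread for H3f3a in WT (1.56 against 1.48%), and close to it for Cenpa (1.66 against 2.13%) and H2afy (2.88 against 3.41%) in WT.

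The test was limma (version 3.58.1, R version 4.3.3, trended prior, genotype alone) on log2(RPKM + 1), over the 12272 genes that reached an RPKM of 1 in 3 libraries or more. This scale understates the change of low genes. Adjustment was by Benjamini-Hochberg over all of these genes. The fit was tested on simulated data. The alternatives were other pseudocounts, filters and scalings, a replicate block, library weights, each library left out, and limma voom on 9249 genes with whole reads. Named genes are the 10 members, called chaperones, the 5 chaperones with the smallest p (1 of them is not reported here), other variants with a mean of at least 1 RPKM in a group, and 3 genes most like H1foo. Further genes, such as Daxx and Nusap1, were named after their values were seen. The members and lists were chosen with earlier results of these data known. Python 3.11.15 and matplotlib 3.10.9 were used for descriptions and figures.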

Additional observations from a re-analysis of the deposited data

How the results depend on the processing

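None of the 10 members was called in the main test or in 12 of 15 alternatives, and H2afj alone was called in the other 3, making 1 of the members: with median-of-ratios rescaling (log2 change 0.43), with a filter of RPKM 5 (0.44) and with library weights (0.42). Of all tested genes, 2.83, 3.05 and 5.39% were called in these 3 settings. The direction changed only for members near 0, with Cenpa at -0.021 under library weights and -0.039 when KO replicate 1 was left out, and H2afv at 0.067 when KO replicate 2 and at 0.022 when WT replicate 1 was left out. Over the fits that leave out a library, the log2 change ran from -0.039 to 0.073 for Cenpa and from -0.049 to 0.067 for H2afv. H2afy was under the filter of RPKM 5 and has no value there. The count over all tested genes, 336, was 94 with no filter, 222 with a filter of RPKM 5 and 662 with library weights, and ran from 151 to 289 without single libraries (151 without KO replicate 3, 152 without KO replicate 2, 161 without WT replicate 3, 195 without WT replicate 2). The chaperone count was 0 with no filter and 0 to 1 without single libraries. The cause of these shifts was not tested. With the replicate number as a block, 320 genes and 0 members were called, and the adjusted p of H2afj was 0.101. Deviations of same-numbered libraries correlated at -0.02, 0.21 and -0.03, and those of differently numbered libraries at -0.155 to 0.153. With 3 libraries a group, these values cannot show whether the numbers pair the libraries. The H2afv share of its pair differed by -3.09 percentage points, KO minus WT, by -0.249 without KO replicate 2 and by -5.47 without KO replicate 3. The H3f3b share difference of 0.177 points turned to -0.091 without KO replicate 2. The lowest read number of any member in a library was that of H2afj, with 804 to 1470 reads a library. Its counting error was 2.69% in KO and 3.28% in WT, against a spread of 10.8% in KO and 5.90% in WT.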
